A study of Mus musculus with 5 samples.

Results

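The 10 mouse miRNA spots whose signal was low in the ES cell lines 2TS22c and ZHBTc4 are described here across 5 cultures. They are 10 of the 1265 miRNA spots on the array: mmu-miR-1892, mmu-miR-2137, mmu-miR-711, mmu-miR-6538, mmu-miR-2861, mmu-miR-762, mmu-miR-326-5p, mmu-miR-328-5p, mmu-miR-3102-5p and mmu-miR-5109. The prefix mmu, for mouse, is left out where values are compared. All were picked by name because each read at least 2-fold lower in 2TS22c or in ZHBTc4 ES cells than in V6.5 ES cells. Those 2 contrasts therefore chose the miRNAs, and their values are given as a description only.

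For each culture, total RNA carrying the dye Hy5 was read in a single colour on 1 mouse miRNA array from Toray, per the file headers. V6.5 is a mouse embryonic stem (ES) cell line of hybrid strain background and served as the wild type, with no agent named in its labels. PKM1 KI ES cells are a line whose name refers to a knock-in (KI) of PKM1, a splice form of the glycolytic enzyme pyruvate kinase M. The embryoid body, a suspended clump of differentiating ES cells, came from V6.5 and was grown for 1 week in medium lacking LIF, the cytokine that holds mouse ES cells undifferentiated. 2TS22c and ZHBTc4 are known as ES lines in which the endogenous Sox2 and Oct4 (Pou5f1) genes, respectively, are inactivated and a tetracycline-repressible transgene supplies the factor. All 4 ES cultures, these 2 lines included, were grown with LIF, and no tetracycline or doxycycline is named in the labels. Each culture is 1 array, so no difference below has a replicate check, no test was run, and a difference between lines cannot be told apart from a difference between single RNA preparations or arrays.

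A miRNA is cut from a hairpin precursor, and either arm of the hairpin can be loaded into an Argonaute protein. The loaded strand finds messenger RNAs mainly through its seed, bases 2 to 8 from the 5′ end, and lowers their translation and stability. In mouse ES cells the best known miRNAs are the miR-290 and miR-302 clusters, which sustain rapid division and the undifferentiated state. The 10 miRNAs here lie outside those clusters, and most were named from sequencing surveys and have little settled function in ES cells.

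The mature sequences are shown because they are what the rule did not use. RefSeq (GRCm38.p6) held 8 of the 10 by name, and miR-328-5p and miR-5109 were not matched. Capitals mark the seed, and each line reads 5′ to 3′.
miR-1892: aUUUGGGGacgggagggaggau
miR-2137: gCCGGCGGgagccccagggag
miR-711: gGGACCCGgggagagauguaag
miR-6538: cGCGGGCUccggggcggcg
miR-2861: gGGGCCUGgcggcgggcgg
miR-762: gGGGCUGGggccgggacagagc
miR-326-5p: gGGGGCAGggccuuugugaaggcg
miR-3102-5p: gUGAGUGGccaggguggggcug

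The 8 sequences carried 8 different seeds, so they form no seed family, and the longest run shared by any pair was 7 bases. They were rich in guanine. The median G share was 56.2%, against 26.1% over the 1035 miRNA spots with a RefSeq sequence, while the median C share was 19.7% against 22.7%. The median G+C share was 77.3%, from 59.1% in miR-1892 to 94.7% in miR-6538 and miR-2861, against 50% over the matched spots. The run GGGG, searched on the mature strand with overlaps allowed after the sequences had been seen, was in 7 of the 8 (87.5%), with miR-2137 the exception. It was in 88 of the 1035 matched spots (8.50%), and in 82 of the 778 matched spots that were detected on at least 1 array (10.5%). Of the 392 spots detected on all 5 arrays, as all 10 were, 294 (75%) had a sequence, under the 80% set as the minimum for such a comparison. In those 294 the median G share was 30.4%, the median G+C share 57.8%, and 59 (20.1%) held GGGG.

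The hairpins lie apart in the genome. RefSeq places 9 of the 10 in GRCm38.p6, and 8 of these 9 fall within the span of another gene (exon, intron and strand of that gene were not compared). Mir1892 is at chr12:54645933-54646012 within Sptssa, a subunit of serine palmitoyltransferase, and Mir6538 is at chr12:26414901-26415010 within Rnf144a, a ubiquitin ligase. Mir2137 is at chrX:72992079-72992144 within Zfp185, which encodes an actin-binding LIM protein. Mir711 is at chr9:108969922-108970003 within Col7a1, the collagen of anchoring fibrils in skin. Chromosome 7 holds Mir762 at chr7:127708487-127708562 within Bcl7c, a chromatin remodelling subunit, Mir326 at chr7:99552269-99552363 within Arrb1, which encodes beta-arrestin, and Mir3102 at chr7:100882306-100882409 within Arhgef17. Mir328 is at chr8:105308364-105308460 within Elmo3, an engulfment and motility gene. Mir2861 is at chr2:32712807-32712888 with no spanning gene in the table.

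A spot was called detected when its raw intensity lay over 2 SD above the mean of its array's 1664 blank spots. By that limit 754, 763 and 750 miRNA spots were detected in V6.5 ES, PKM1 KI ES and the embryoid body, and 507 and 520 in 2TS22c and ZHBTc4 ES cells. The ES label was checked against 5 miRNAs of the miR-290 cluster, which were detected on every array. Their summed normalised signal was 12.85 (log2) in V6.5 ES, 12.83 in PKM1 KI ES, 12.37 in the embryoid body, 14.34 in 2TS22c and 14.26 in ZHBTc4 ES cells. The raw intensities of the 5 summed to 8919, 9506, 5419, 12923 and 14495 in the same order, so 2TS22c and ZHBTc4 exceeded V6.5 ES by less than after normalisation. Of 6 miRNAs common in fibroblasts and feeder cells, 6 were detected in V6.5 ES, PKM1 KI ES and the embryoid body and 4 in each of the other two cultures, with a summed log2 signal of 9.61 to 9.79 in the first set and 9.28 to 9.33 in the second (summed raw intensity 647 to 993 and 456 to 467). Markers of neural cells were detected at 3, 3, 4, 1 and 1 of 4 in the array order used here, and muscle, blood and liver or gut lists at 0 to 3 of 3 to 5 spots on any array. The part of such cells in the results below was not tested.

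All 10 miRNAs were detected on all 5 arrays, also by the stricter limit set from the 24 negative control spots. Levels below are normalised log2 signals after quantile normalisation, in which spots of equal rank receive equal values, and raw intensities are in scanner units. Intensities of different probes do not order the abundance of their miRNAs.

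mmu-miR-2137 measured 13.53 in V6.5 ES, 14.12 in PKM1 KI ES, 14.48 in the embryoid body, 12.02 in 2TS22c ES and 12.02 in ZHBTc4 ES cells. Its raw intensities were 12793, 19279, 17416, 2401 and 2990 in the same order. The first 3 arrays were high and the last pair low, with a gap of 1.51 (log2) between the nearest arrays of the 2 sets. That gap was the widest of the 10 in the main processing. The signal in both 2TS22c and ZHBTc4 was 2.85-fold below V6.5 ES. With local background in the correction the log2 differences were -1.14 and -0.93. The nearest arrays were then PKM1 KI ES at 12.23 and ZHBTc4 at 11.62, closer together than V6.5 ES and ZHBTc4 for miR-326-5p (10.85 and 9.37).

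mmu-miR-711, studied in mouse brain injury as a miRNA that lowers Akt, measured 11.16 in V6.5 ES, 11.03 in PKM1 KI ES, 12.33 in the embryoid body, 9.65 in 2TS22c ES and 9.73 in ZHBTc4 ES cells. Its raw intensities were 2502, 3035, 4933, 494 and 570. The embryoid body stood above both LIF cultures of the higher set, so miR-711 had the widest range among those 3 arrays (1.30). Against V6.5 ES it was 2.83-fold lower in 2TS22c and 2.69-fold lower in ZHBTc4.

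mmu-miR-1892 measured 9.06 in V6.5 ES, 8.51 in PKM1 KI ES, 8.86 in the embryoid body, 6.82 in 2TS22c ES and 7.04 in ZHBTc4 ES cells. Raw intensities were 648, 480, 473, 78 and 97, and the last pair lay 1.30 and 1.58 times above the detection limit. It had the widest fold of the 10 against V6.5 ES, 4.72 in 2TS22c and 4.06 in ZHBTc4, and it is the one whose fold rests on spots close to background. Its size depends on the processing: over 6 processings the log2 difference ran from -3.93 to -2.24 in 2TS22c and from -3.50 to -2.02 in ZHBTc4, and in raw intensity it was 8.31-fold lower in 2TS22c.

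mmu-miR-6538 measured 11.66 in V6.5 ES, 11.66 in PKM1 KI ES, 12.15 in the embryoid body, 10.22 in 2TS22c ES and 10.41 in ZHBTc4 ES cells, with raw intensities of 3315, 4612, 4523, 763 and 927. The embryoid body was again the highest. The folds below V6.5 ES were 2.71 and 2.38.

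mmu-miR-2861, which promotes osteoblast differentiation in mouse by lowering Hdac5, measured 12.83 in V6.5 ES, PKM1 KI ES and the embryoid body, 11.51 in 2TS22c ES and 11.78 in ZHBTc4 ES cells. The equal values reflect one rank, the 7th brightest spot, on each of those 3 arrays, since the raw intensities were 8096, 10867, 7456, 1865 and 2343. Its folds below V6.5 ES were 2.50 in 2TS22c and 2.07 in ZHBTc4.

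mmu-miR-762 measured 11.78 in V6.5 ES, 11.88 in PKM1 KI ES, 11.66 in the embryoid body, 10.51 in 2TS22c ES and 10.83 in ZHBTc4 ES cells (raw 4161, 4905, 3952, 905 and 1197). It was 2.41-fold below V6.5 ES in 2TS22c and 1.94-fold below in ZHBTc4, so it passed 2-fold in the first line and not in the second. The 3 higher arrays lay within 0.23 of each other.

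mmu-miR-326-5p, the partner strand of the better studied miR-326-3p, measured 10.89 in V6.5 ES, 10.97 in PKM1 KI ES, 11.03 in the embryoid body, 9.60 in 2TS22c ES and 9.62 in ZHBTc4 ES cells (raw 2322, 2995, 2242, 470 and 510). mmu-miR-328-5p measured 10.97, 10.76, 10.97, 9.73 and 9.65 on the same arrays (raw 2366, 2520, 2205, 508 and 544). mmu-miR-3102-5p measured 11.35, 11.51, 11.51, 10.14 and 10.16 (raw 2957, 4267, 3150, 746 and 852). In each of these 3 the higher arrays spanned no more than 0.21 and the 2 lower arrays differed by no more than 0.07, with folds below V6.5 ES of 2.27 to 2.50. mmu-miR-5109 measured 12.33 in V6.5 ES, 12.33 in PKM1 KI ES, 12.02 in the embryoid body, 11.25 in 2TS22c ES and 11.25 in ZHBTc4 ES cells (raw 6856, 7238, 4263, 1673 and 1862). Its gap between the 2 sets of arrays, 0.77, was the narrowest in the main processing, and its fold below V6.5 ES was 2.11 in both lines.

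**Figure D1:**
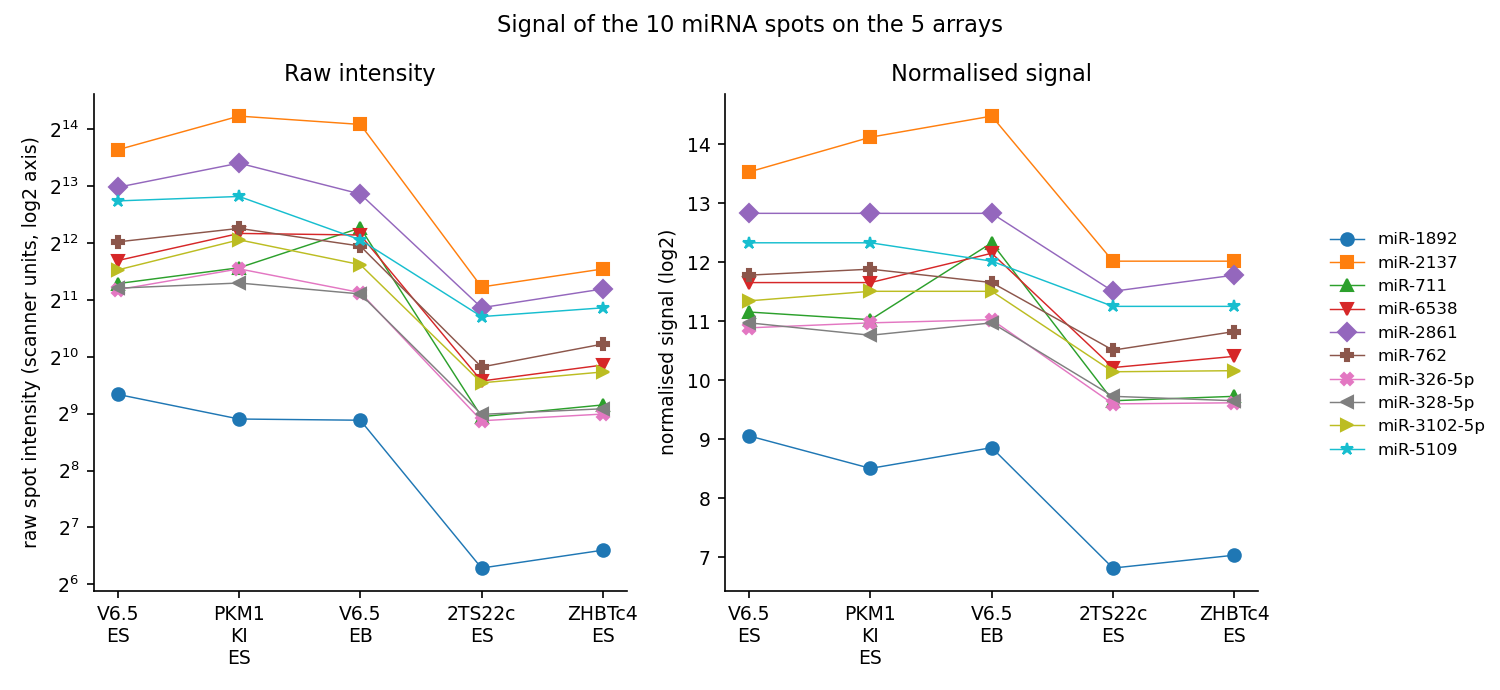
Signal of the 10 miRNA spots on the 5 arrays, as raw intensity on a log2 axis (left) and as normalised log2 signal (right). Each point is 1 spot on 1 array and lines only join the points of a miRNA. All 10 lie lower in 2TS22c and ZHBTc4 ES cells than on the other 3 arrays, and miR-711 stands highest in the embryoid body.

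In every one of the 10 the lowest of V6.5 ES, PKM1 KI ES and the embryoid body lay above the highest of 2TS22c and ZHBTc4, a pattern shown by 25.3% of the 959 spots detected on at least 1 array. The choice of miRNAs partly fixes that count. Summed over the 10, signal above the blank median made up 15.0% of all miRNA signal in V6.5 ES, 18.3% in PKM1 KI ES, 20.5% in the embryoid body, 4.70% in 2TS22c and 4.88% in ZHBTc4 ES cells. Divided by the mean of the 16 spike-in spots, that sum was 3.90, 5.32, 7.71, 0.918 and 1.05, while the sum of all other miRNAs over the same spike-in mean was 22.2, 23.7, 30.0, 18.6 and 20.4. The other miRNAs were thus also lowest in the last pair of cultures, by a smaller ratio.

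Against V6.5 ES, all 10 were at least 2-fold lower in 2TS22c, where 1.99% of 804 spots detected on either array were (16 spots), and 9 were in ZHBTc4, where 1.61% of 805 were (13 spots). These 2 counts follow from the rule. The median log2 difference of the 10 was -1.30 (from -2.24 to -1.08) in 2TS22c and -1.26 (from -2.02 to -0.96) in ZHBTc4, with a median of 0 over all spots compared in each. With spike scaling the medians of the 10 were -2.001 and -1.89, and with local background 6 were 2-fold lower in ZHBTc4. Just inside the threshold were miR-5109 at 2.11-fold in both lines and miR-2861 at 2.07-fold in ZHBTc4. Just outside it were miR-3960 at 1.99-fold in both lines, miR-297a-5p at 1.99-fold and 1.95-fold, miR-669f-5p at 1.99-fold in 2TS22c, and miR-5105 at 1.95-fold in ZHBTc4.

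The other spots past 2-fold were few. miR-302d-3p, miR-302a-3p and miR-302b-3p, of the ES cell cluster miR-302, and miR-125b-5p, which is linked to differentiation, were at least 2-fold lower in both lines. miR-5126 at 2.18-fold and miR-92b-5p, the partner strand of miR-92b, at 2.14-fold were lower in 2TS22c. Of these 6, miR-5126 and miR-92b-5p were the only ones above the negative control limit in 2TS22c, as all 10 miRNAs described here were.

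The miRNAs were also set against PKM1 KI ES, an array the rule did not use. The low side of each difference is the same 2TS22c or ZHBTc4 spot that chose the miRNA, and PKM1 KI ES lay close to V6.5 ES, so the counts below are largely fixed by the choice and are a description only. Against PKM1 KI ES, all 10 were at least 2-fold lower in 2TS22c, against 3.72% of 807 spots, with a median of -1.37 (from -2.10 to -1.03). All 10 were also at least 2-fold lower in ZHBTc4, against 2.98% of 806 spots, with a median of -1.27 (from -2.10 to -1.05). The median over all spots compared was 0 in each. With spike scaling the medians of the 10 were -2.39 and -2.21. With local background 9 of the 10 were 2-fold lower in 2TS22c and 7 in ZHBTc4: miR-2137 differed by -0.82 and -0.61, and miR-762 and miR-3102-5p by -0.51 and -0.25 in ZHBTc4 (log2). In the main processing miR-2137 was 4.29-fold lower in both lines, the widest of the 10, and miR-1892 was 3.22-fold and 2.77-fold lower. That order depends on the processing, since miR-2137 had the smallest difference in 2TS22c with local background and miR-1892 had the largest in the authors' deposited table, -3.32 and -2.89. The narrowest folds were 2.05 for miR-328-5p in 2TS22c and 2.07 for miR-2861 in ZHBTc4.

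**Figure D2:**
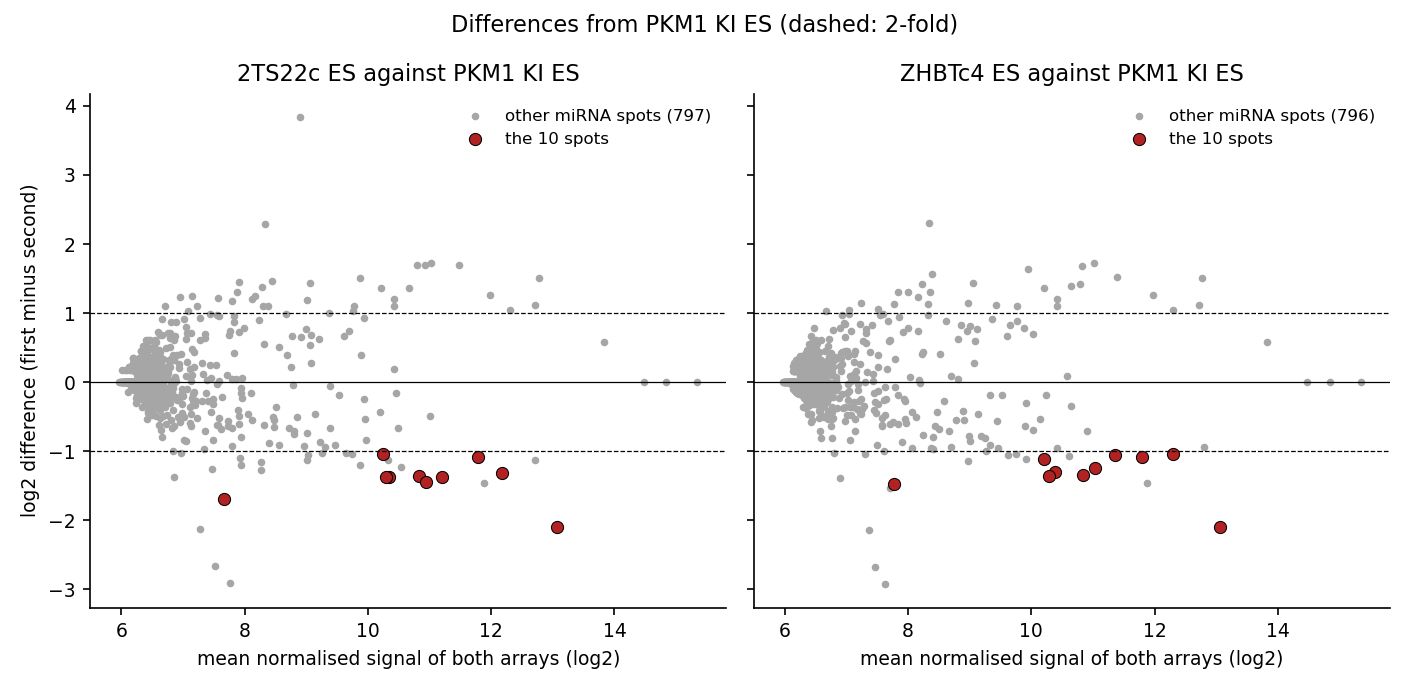
Log2 difference of 2TS22c (left) and ZHBTc4 (right) from PKM1 KI ES cells against the mean log2 signal of both arrays, for spots detected on either array. Red points are the 10 miRNAs, grey points all other spots and dashed lines mark 2-fold. All 10 lie below the lower dashed line, among 30 spots in 2TS22c and 24 in ZHBTc4, which the choice of the miRNAs on the 2TS22c and ZHBTc4 arrays largely fixes.

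Between 2TS22c and ZHBTc4, 0 of the 10 were 2-fold apart and the median difference was -0.05, the largest being miR-762, 1.24-fold lower in 2TS22c. 2TS22c was on the same chip as V6.5 ES, PKM1 KI ES and the embryoid body, and ZHBTc4 was on another chip, so the 2TS22c differences are within-chip values. Detector gain was 47 for V6.5 ES, PKM1 KI ES and ZHBTc4, 46 for 2TS22c and 43 for the embryoid body.

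Between PKM1 KI and V6.5 ES cells, none of the 10 was 2-fold apart (0 of 10 at least 2-fold lower, where 0.114% of 874 spots were). By any amount 3 were lower, 4 higher and 3 equal in rank, beside 43.6% of all spots lower and 49% higher, and the median was 0.00. In the authors' deposited table and with spike or median scaling 9 were higher and 1, miR-1892, lower, whereas with local background 6 were lower, 3 higher and 1 equal. The ends in the main processing were miR-1892, 1.46-fold lower in PKM1 KI ES, and miR-2137, 1.5-fold higher. With local background miR-1892 was at -1.03 (log2), past 2-fold, and miR-2137 turned lower, at -0.32. For scale, the SD of the log2 difference between these 2 arrays was 0.24 over the 643 spots detected on both, which is a spread across miRNAs and not a replicate error.

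In the embryoid body, miR-711 was 2.25-fold higher than in V6.5 ES and was the only one of 850 spots at least 2-fold higher (0.118%). Relative to PKM1 KI ES it was 2.47-fold higher. miR-2137 followed at 1.93-fold and miR-6538 at 1.41-fold higher than V6.5 ES, while miR-5109 was 1.24-fold and miR-1892 1.15-fold lower. With local background miR-2137 and miR-6538 were higher by 0.23 and 0.19 (log2). None of the 10 was at least 2-fold lower, where 0.235% of spots were. The median over the 10 was 0.07 (from -0.31 to 1.17), beside 0.01 over all spots compared. The values of miR-1892, miR-762 and miR-5109 depend on the scale: they were lower than in V6.5 ES after quantile normalisation and higher after scaling to the spike-ins, by which 3 of the 10 passed 2-fold and the median spot was itself 0.66 higher in the embryoid body. miR-711 was higher under all 6 processings, by 1.17 to 1.82 on the log2 scale.

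Other strands from the same hairpins gave a separate readout. miR-326-3p measured 6.34 in V6.5 ES, 6.16 in PKM1 KI ES, 6.36 in the embryoid body, 6.27 in 2TS22c ES and 6.30 in ZHBTc4 ES cells. miR-328-3p measured 6.44, 6.67, 6.56, 6.24 and 6.64, and miR-3102-3p measured 6.51, 6.55, 6.44, 6.24 and 6.44. These 3 were detected on 4 arrays each, all but 2TS22c, and lay near the detection limit, where a difference of the size seen for the 5p strands was not detectable in the main processing. In the authors' deposited table miR-3102-3p differed from V6.5 ES by -1.25 in 2TS22c and -1.12 in ZHBTc4. There miR-328-3p differed by -0.89 and -0.48 and miR-326-3p by -0.69 and -0.59. The median of all spots detected on both arrays was -0.68 and -0.55 in that table. miR-3102-3p.2-3p, also of the Mir3102 hairpin, was detected on all 5 arrays, at 6.61, 6.67, 6.78, 6.60 and 6.84. Its raw intensity in 2TS22c was 69, near the detection limit. The log2 difference of miR-3102-3p.2-3p from V6.5 ES was -0.01 in 2TS22c and 0.23 in ZHBTc4. In the authors' deposited table it was -0.997 and -0.73. Another strand of that hairpin, miR-3102-5p.2-5p, was also detected throughout, at 7.77, 8.03, 7.84, 7.86 and 8.43. Its log2 difference from V6.5 ES was 0.09 in 2TS22c and 0.66 in ZHBTc4, where that of miR-3102-5p was -1.20 and -1.18. The sign for miR-3102-5p.2-5p depends on the scale, since spike scaling gave -0.55 and -0.13 for it, beside -1.78 and -1.68 for miR-3102-5p, which was the lower of the 2 strands relative to V6.5 ES on either scale.

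Strands of the same hairpins are set side by side here to show how far they differ in guanine, with seeds in capitals.
miR-3102-5p: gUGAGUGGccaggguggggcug
miR-3102-5p.2-5p: gGUGGUGCaggcaggagagcc
miR-3102-3p: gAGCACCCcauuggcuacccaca
miR-326-5p: gGGGGCAGggccuuugugaaggcg
miR-326-3p: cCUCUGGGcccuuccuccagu
The G share was 59.1% in miR-3102-5p, 52.4% in miR-3102-5p.2-5p and 17.4% in miR-3102-3p, and the G+C share 70.8% in miR-326-5p and 66.7% in miR-326-3p. The G+C share was 72.7% in miR-3102-5p and 71.4% in miR-3102-5p.2-5p.

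miR-3960, which is clustered with miR-2861 in mouse and also promotes osteoblast differentiation, was low in the same cultures. It measured 12.15 in V6.5 ES, 12.61 in PKM1 KI ES, 12.61 in the embryoid body, 11.16 in 2TS22c ES and 11.16 in ZHBTc4 ES cells. 2TS22c and ZHBTc4 were low, 1.99-fold below V6.5 ES and 2.74-fold below PKM1 KI ES.

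Among spots matched to a RefSeq sequence, only 2 others share a seed with any of the 8 sequenced miRNAs. Seeds of miR-328-5p, miR-5109 and the unmatched spots could not be compared. miR-3091-3p, with the seed of miR-2861, measured 6.13, 6.31, 6.26, 6.11 and 6.24 and was detected on only 2 of the arrays. miR-702-5p, with the seed of miR-3102-5p, measured 6.43, 6.58, 6.57, 6.63 and 6.73, and read no lower in 2TS22c and ZHBTc4 than in V6.5 ES, except in the authors' deposited table, by -0.56 and -0.01 (log2).

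The profile across the 5 arrays was next compared with the 382 other spots detected on all of them, by the root-mean-square distance between log2 signals centred on each spot's mean and the median centred profile of the 10. The 6 nearest were miR-92b-5p at 0.103, miR-5126 at 0.119, miR-3960 at 0.146, miR-6244 at 0.147, miR-3473e at 0.182 and miR-1906 at 0.209, where the median spot was at 0.679. Among the 10 themselves the distance ran from 0.033 for miR-326-5p to 0.478 for miR-711, so the nearest outsiders are closer to the common profile than several of the chosen miRNAs. miR-92b-5p measured 11.03, 11.16, 11.25, 9.93 and 10.08, and miR-5126 measured 13.28, 13.28, 13.53, 12.15 and 12.33. RefSeq held 5 of the 6 sequences.
miR-92b-5p: aGGGACGGgacguggugcaguguu
miR-5126: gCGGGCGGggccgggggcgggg
miR-6244: gGGGGCGUggaauuaucgggu
miR-3473e: gGGCUGGAgagauggcucgua
miR-1906: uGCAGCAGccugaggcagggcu
Their G shares ran from 40.9% in miR-1906 to 77.3% in miR-5126, and their G+C shares from 61.9% to 100%, all above the medians of 30.4% and 57.8% over the sequenced spots detected on all arrays, the set they were drawn from. GGGG was in 2 of the 5, beside 20.1% of that set.

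Base composition was then compared with the differences over all other spots, leaving the 10 out. The check needs a sequence for 80% of the spots compared. It was void for both lines against V6.5 ES, where 79.5% and 79.8% had one, and was made where at least 80.2% did. Across 642 spots the Spearman rank correlation of G+C share with the log2 difference was -0.33 for 2TS22c and -0.29 for ZHBTc4 against PKM1 KI ES. It was 0.28 across 694 spots for PKM1 KI against V6.5 ES and 0.19 across 674 spots for the embryoid body against V6.5 ES. With local background these 4 values were nearer to 0, at -0.22, -0.13, 0.051 and 0.097. These are descriptions across miRNAs that share arrays and normalisation, and the first 2 share the PKM1 KI array. Against PKM1 KI ES, the 37 spots with a G+C share of 70% and over had a median log2 difference of -0.22 in 2TS22c and -0.25 in ZHBTc4, and 26 of the 37 were lower in each, beside 37.1% and 38.0% of all spots compared. The median was 0 in 2TS22c and 0.01 in ZHBTc4 for spots of 40 to under 50%. The 6 of the 8 sequenced miRNAs in the top class lay below its lower quartile, -0.67 in 2TS22c and -0.55 in ZHBTc4. Their choice on the 2TS22c and ZHBTc4 arrays largely fixes that place.

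**Figure D3:**
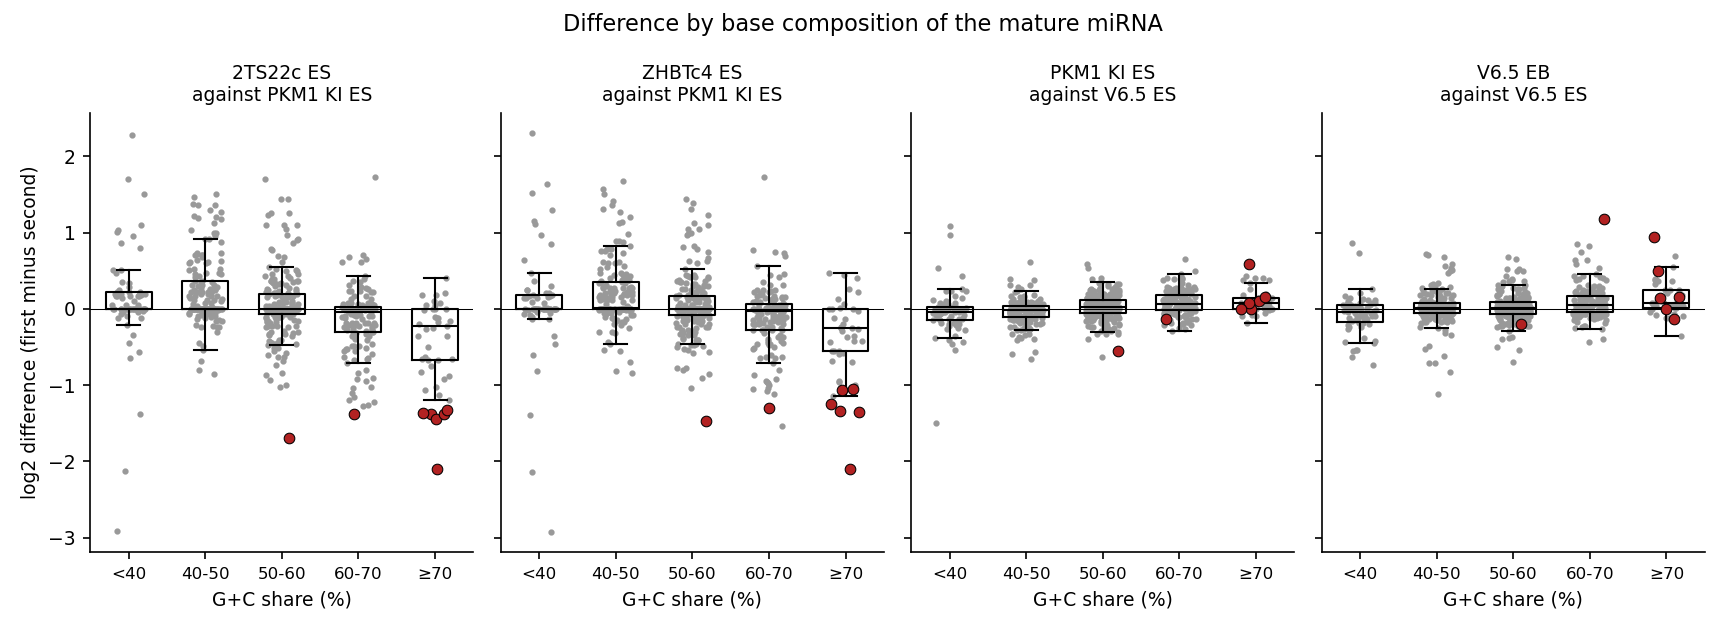
Log2 difference by G+C share of the mature miRNA in 4 pairs of arrays, for spots detected on either array and matched to RefSeq. Grey points and boxes (median and quartiles, whiskers to 1.5 times the interquartile range) are other spots and red points the 8 sequenced miRNAs described here. In 2TS22c and ZHBTc4 against PKM1 KI ES the median of the class of 70% and over is -0.22 and -0.25. Each red point in those panels lies below the box of its class, which the choice of the miRNAs largely fixes.

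Of the other spots at least 2-fold lower than in PKM1 KI ES, 16 had a sequence in 2TS22c and 12 of these had a G+C share of 60% or more, beside 28.3% of all 642 other spots with a sequence. In ZHBTc4 it was 7 of 11, beside 28.2%, but 11 of 14 such spots is under the 80% minimum. Against V6.5 ES there were fewer such spots, and the counts were 2 of 5 sequenced spots in 2TS22c, beside 27.3%, and 0 of 3 in ZHBTc4, beside 27.4%. Both of these pairs are under the 80% minimum over all spots compared, and in ZHBTc4 only 3 of 4 such spots had a sequence. Against PKM1 KI ES, 47 of the 71 other spots that hold GGGG were lower in 2TS22c and 46 in ZHBTc4, with medians of -0.21 and -0.20. Of the 571 spots without it 176 and 189 were lower, with a median of 0. Spots set to 0, as above, count as not lower in both classes.

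The 5 other spots of highest G+C share that were detected on all arrays were miR-5126 (100%), miR-5131 (87.0%), miR-5122 (85%), miR-3077-5p (84%) and miR-5130 (83.3%). All 5 were lower in 2TS22c than in V6.5 ES, where 36.8% of all spots compared were. Their log2 differences ran from -1.12 for miR-5126 to -0.64 for miR-5122. All 5 were lower in ZHBTc4 as well, from -0.95 for miR-5126 to -0.51 for miR-5130, beside 38.0% of all spots. In the embryoid body all 5 were higher, from 0.25 for miR-5126 to 0.70 for miR-5122, where 44.9% of all spots were lower. These signs were the same under all 6 processings but for miR-5126 in the embryoid body, which was at -0.23 with local background. The part of base composition, labelling or hybridisation in the low readings of the 10 miRNAs was not tested.

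The places of the spots on the array were compared last. The 10 spots lie in 8 of 32 blocks, and the 55 miRNA spots next to them had a median log2 difference from V6.5 ES of 0 in 2TS22c and -0.00 in ZHBTc4. The median over all miRNA spots was also 0 in each, and an effect of position was not tested. The local background measured around the 10 spots was high where the spots were bright: its median was 935 in V6.5 ES, 1357 in PKM1 KI ES, 1694 in the embryoid body, 182 in 2TS22c and 269.5 in ZHBTc4 ES cells, beside 35 to 53 around all miRNA spots. Raw intensity over local background in V6.5 ES was lowest for miR-2137 (2.20) and highest for miR-328-5p (19.6) and miR-326-5p (15.3). Local background was also higher around brighter spots over all miRNA spots, with a Spearman rank correlation from 0.56 in 2TS22c to 0.77 in the embryoid body across 1265 spots. When local background entered the correction, 6 of the 10 remained at least 2-fold below V6.5 ES in ZHBTc4. miR-2137, miR-2861, miR-762 and miR-3102-5p then differed by -0.93, -0.82, -0.70 and -0.41 on the log2 scale.

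**Figure D4:**
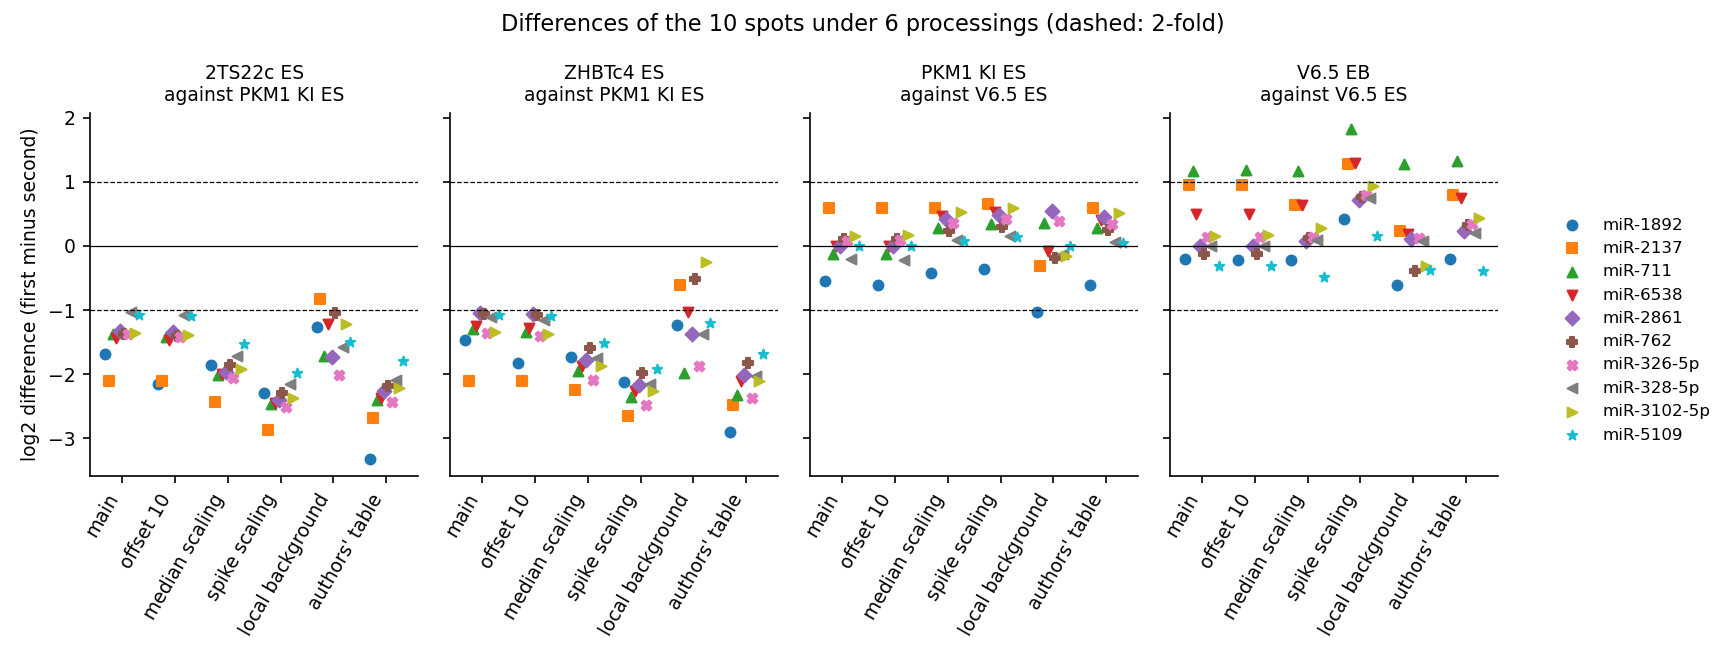
Log2 difference of the 10 miRNAs in 4 pairs of arrays under 6 processings of the same arrays, with dashed lines at 2-fold. All 10 lie below 0 in 2TS22c and ZHBTc4 against PKM1 KI ES under each of the 6, with at least 9 and at least 7 of them 2-fold lower. The points of PKM1 KI against V6.5 ES lie on both sides of 0 in all 6.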

How the data were processed

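Spot and local background intensity values were read as deposited by the authors, 1 scanner file per array (1265 miRNA, 1664 blank, 24 negative control and 16 spike-in spots); per the file headers they are medians at 1 wavelength and not normalised. No replicates exist. Intensities were corrected with normexp (limma 3.58.1, R 4.3.3; offset 50, all spots, no local background), quantile normalised over miRNA spots and taken to log2. Where only 1 array of a pair detected a spot, the dim side was held at the higher of its own and that array's lowest detected signal. A difference that would then favour the array without detection was taken as none, counting as neither lower nor higher. Medians and shares over all spots compared include such spots. Compared were spots detected on either array; 2-fold is a description, with no test. The code was tested on simulated arrays. The authors' deposited table of processed intensity (each column's median is 25; scale, centring and method not stated; spots without a value held at the column's lowest) served as an alternative, with 6 other settings and raw intensities added after seeing the data. The miRNAs, lists and composition check were chosen with earlier results of these data known, and spots detected on either array were used for composition after coverage had been seen. Named spots followed a written rule: all 10, their other strands and miR-3960, spots beside the threshold, the 6 nearest profiles and the 5 of highest G+C share. Sequences are from RefSeq (GRCm38.p6). The number of arrays limits precision. SciPy 1.17.1 gave rank correlations.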

Additional observations from a re-analysis of the deposited data

How the results depend on the processing

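No paired analysis was possible because each culture is 1 array. Over 7 other ways of processing and 1 added after seeing the data, 94 values stayed within tolerance (0.24 for a median log2 difference, 0.1 for a rank correlation, 1.5 times for a count), 30 moved beyond it, and no value larger than its tolerance changed sign. The median log2 difference of the 10 miRNAs from V6.5 ES in 2TS22c was -2.001 with spike scaling, -1.62 with median scaling, -2.001 in the authors' deposited table and -2.21 in raw intensities. In ZHBTc4 it was -1.89, -1.55, -1.80 and -1.99, and in PKM1 KI ES 0.38, 0.32, 0.31 and 0.32. From PKM1 KI ES it was -2.39, -1.94, -2.31 and -2.57 in 2TS22c and -2.21, -1.82, -2.10 and -2.31 in ZHBTc4. The embryoid body gave 0.78 with spike scaling and 0.33 in the authors' deposited table. The median of all spots detected on both arrays also differed between scalings. From V6.5 ES it was 0.07 in 2TS22c, 0.04 in ZHBTc4 and 0.01 in the embryoid body in the main processing, -0.16, -0.17 and 0.66 with spikes, 0.22, 0.16 and 0.01 with median scaling and -0.68, -0.55 and 0.01 in the authors' deposited table. From PKM1 KI ES it was 0.05 in both lines in the main processing, -0.24 in both with spikes, 0.21 and 0.15 with median scaling and -0.69 and -0.54 in the authors' deposited table. Relative to these medians the median of the 10 in 2TS22c against V6.5 ES was -1.84 to -1.32 by these 3. The share of all spots lower in 2TS22c than in V6.5 ES was 36.8% in the main processing, 49.1% with spikes, 21.6% with median scaling, 53.6% with local background, 74.9% in the authors' deposited table and 80.7% in raw intensities. With local background 1 miRNA, miR-1892, was 2-fold lower in PKM1 KI than in V6.5 ES, and the rank correlation of G+C share was 0.051 there, -0.22 for 2TS22c and -0.13 for ZHBTc4 against PKM1 KI ES. The 2 lines were -0.46 and -0.40 with spikes and -0.46 and -0.41 in raw intensities. With spikes the difference from PKM1 KI ES also followed the mean normalised signal of the pair, with rank correlations of -0.37 and -0.35. In the main processing these were -0.01 and -0.01. The rank correlation of G+C share was not run with the negative control limit, where under 80% of spots had a sequence. The causes were not tested.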
